A study of Mus musculus with 12 samples.

Results

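Hmgcs1, Sqle, Insig1, Idi1, Dhcr7, Srebf2 and Fdft1 were chosen by gene symbol as genes of cholesterol synthesis and of its control, and their level was followed from pup to pup in newborn brain. These 7 genes, out of 17550 symbols on the array, were read by 78 probesets of the main type, and all of them passed the filter on replicate spread that left 17279 genes. Total RNA of the whole brain of 12 newborn female mice was hybridized to Affymetrix exon arrays, 1 array for each brain. Of these pups, 6 were wildtype (KIS +/+) and 6 were KIS-ko (KIS -/-), and each of 6 litters gave 1 pup of either genotype. The animals carried the same C57BL6/N background, to which the knockout had been backcrossed, and received no treatment, and the deletion was present in every cell of the knockout pups, not in the brain alone. KIS is a protein kinase encoded by Uhmk1.

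A signal is the brightness of a probeset, a small group of probes within 1 exon. The level of a gene is the average, across its probesets, of log2(signal + 16), where 1 unit is a doubling, and levels of different genes on this scale cannot be set against each other. A lower value in whole brain cannot tell fewer cells that use a gene from less RNA in each cell.

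Cells make cholesterol from acetyl-CoA through the mevalonate pathway. Hmgcs1 makes HMG-CoA, the precursor of mevalonate, Idi1 interconverts the isoprenoid building blocks, Fdft1 joins farnesyl units into squalene, Sqle oxidizes squalene, and Dhcr7 carries out the last reduction of one branch of the sterol steps. When sterols run low in the endoplasmic reticulum, the protein of Srebf2 (SREBP2) leaves it with its escort SCAP, is cut in the Golgi and enters the nucleus, where it turns on most genes of the pathway and its own gene. The protein of Insig1 holds the SREBP2 and SCAP pair back when sterols are plentiful, and Insig1 is itself a target. The brain makes nearly all of its cholesterol itself, since plasma lipoproteins do not cross into it.

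The promoters of 5 of the 7 genes were matched by symbol in RefSeq (build GRCm38.p6). They are shown so that the sterol regulatory element, through which SREBP acts, and the boxes of its partners NF-Y and Sp1 can be sought. The element was found in Hmgcs1 and, without its last base, in Srebf2, but not in Idi1, Insig1 or Dhcr7. Whether any of these letters has a part in how the 7 genes varied was not tested. Each line gives the 250 bases before the start, 5′ to 3′, all on the plus strand of the genome. Capitals mark the letters TCACCCCA (the sterol regulatory element without its last base, or with it as TCACCCCAC), CCAAT (NF-Y) and GGGCGG (Sp1), on either strand, so that ATTGG and CCGCCC are the last pair read from the other strand. The windows are chr13:119690101-119690350 for Hmgcs1, chr15:82147019-82147268 for Srebf2, chr13:8885356-8885605 for Idi1, chr5:28071162-28071411 for Insig1 and chr7:143829964-143830213 for the third of the 3 starts listed for Dhcr7.
Hmgcs1: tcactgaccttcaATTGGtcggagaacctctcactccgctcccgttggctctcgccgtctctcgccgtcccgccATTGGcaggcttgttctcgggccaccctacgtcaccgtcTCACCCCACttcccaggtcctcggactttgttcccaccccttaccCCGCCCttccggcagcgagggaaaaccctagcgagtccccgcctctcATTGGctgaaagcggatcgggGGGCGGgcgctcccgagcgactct
Srebf2: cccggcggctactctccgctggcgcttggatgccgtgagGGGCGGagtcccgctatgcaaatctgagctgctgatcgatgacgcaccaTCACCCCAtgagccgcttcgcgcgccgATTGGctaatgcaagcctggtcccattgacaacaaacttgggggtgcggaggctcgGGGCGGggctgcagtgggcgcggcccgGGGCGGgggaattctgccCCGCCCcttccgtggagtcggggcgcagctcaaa
Idi1: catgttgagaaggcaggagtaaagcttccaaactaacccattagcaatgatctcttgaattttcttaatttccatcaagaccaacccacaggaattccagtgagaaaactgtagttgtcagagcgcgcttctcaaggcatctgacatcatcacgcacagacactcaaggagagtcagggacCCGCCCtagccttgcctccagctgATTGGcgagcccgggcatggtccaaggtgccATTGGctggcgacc
Insig1: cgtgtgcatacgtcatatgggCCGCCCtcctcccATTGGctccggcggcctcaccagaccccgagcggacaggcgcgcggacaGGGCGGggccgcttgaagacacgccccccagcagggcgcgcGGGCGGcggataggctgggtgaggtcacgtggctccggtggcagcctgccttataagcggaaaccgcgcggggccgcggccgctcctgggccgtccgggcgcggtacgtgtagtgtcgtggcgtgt
Dhcr7: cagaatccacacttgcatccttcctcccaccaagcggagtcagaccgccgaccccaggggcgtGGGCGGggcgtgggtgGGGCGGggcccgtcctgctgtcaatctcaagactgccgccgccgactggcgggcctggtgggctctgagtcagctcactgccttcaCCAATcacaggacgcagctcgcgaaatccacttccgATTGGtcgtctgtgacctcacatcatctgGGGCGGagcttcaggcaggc

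The full element TCACCCCAC stood in the window of Hmgcs1, from 137 to 129 bases before the start, and 0.496% of the 32851 promoters of the same length held it. In Srebf2 the letters TCACCCCA, found in 1.34% of promoters, lay from 162 to 155 bases before the start with another base after them. They were searched for after the promoters had been seen. The core CACCCCAC, whose letters overlap those of the full element, was found in Hmgcs1 alone among the 5 genes, and in 2.58% of promoters. NF-Y boxes were present in all 5 genes, 3 of them in Hmgcs1, 2 in Idi1, 2 in the window of Dhcr7 that is shown, and 1 each in Srebf2 and Insig1, whereas 37.5% of the 27025 symbols of the table had 1 in any of their promoters. Sp1 boxes were also present in all 5 genes, against 35.4% of symbols, with 4 of them in Srebf2. The first and second starts of Dhcr7 had no CCAAT, and the second had no GGGCGG. Of 17 other genes of cholesterol synthesis, described below, 14 had a promoter, and 0 of these held TCACCCCAC or TCACCCCA. The core CACCCCAC was in 1 of the 14, CCAAT in 13 and GGGCGG in 12. For SREBP control and for uptake and transport, 5 genes of each list had a promoter. The element was found in 0 of them in any of these forms. These matches describe letters, and binding was not measured.

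**Figure D1:**
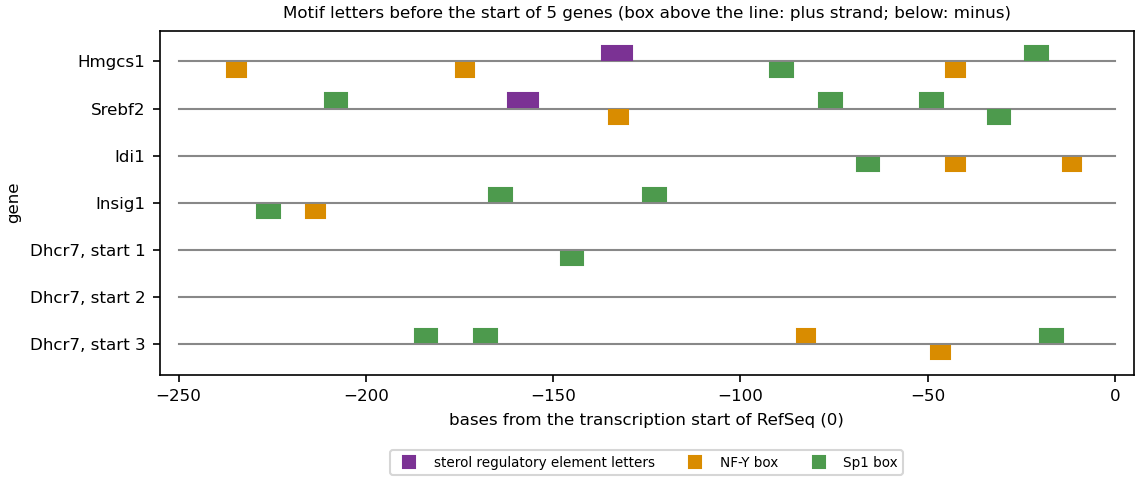
Matches to the letters of the sterol regulatory element (TCACCCCA), the NF-Y box (CCAAT) and the Sp1 box (GGGCGG) in the 250 bases before 7 starts of 5 genes, with the distance to the start in bases on the x axis and 1 gene or start per row. Boxes above a line are on the plus strand and boxes below it on the minus strand, and the element is seen in Hmgcs1 and Srebf2 only.

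The probesets of the 7 genes lay where the table places them, in a genome build that its text does not name. Hmgcs1 had 12 probesets on an unplaced part of chromosome 13, Sqle 14 on chromosome 15 (59146659 to 59162723), Insig1 10 on chromosome 5 (28397917 to 28404803), Dhcr7 11 on chromosome 7 (151009127 to 151034139), Srebf2 12 on chromosome 15 (81977849 to 82004107) and Fdft1 13 on chromosome 14 (63764082 to 63796584). All 6 probesets named Idi1 were placed on chromosome 2 (53553743 to 53555874), while RefSeq has the gene on chromosome 13, and the table marks all 6 as matching more than 1 place, so that values under this name may hold signal of a copy. Of the 12 probesets of Srebf2, 11 were marked in the same way, against 7 of 11 for Dhcr7, 7 of 13 for Fdft1, 1 each for Hmgcs1 and Insig1, and 0 of 14 for Sqle. Dim probesets were few: 12 of the 78 stayed at or below a signal of 713, under which 95% of the 5222 intron control probesets lie.

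The labels were checked with the targeted gene. Uhmk1 was 10.97 ± 0.06 in wildtype and 8.85 ± 0.15 in KIS-ko brains (SD, n = 6 each), a difference of -2.11 on the log2 scale in a limma fit with the litter as a block (Benjamini-Hochberg adjusted p = 2.9e-07 over all genes), and it was the only gene called for genotype, or 0.00579% of genes. A signal of 713, the limit for dim probesets, corresponds to a level of 9.51. All 5 measured markers of neurons were above that level, Tubb3, a neuronal tubulin, at 13.01 in wildtype, and Alb, the main product of hepatocytes, was below it at 7.23. The Uhmk1 level of the KIS-ko brains was below it too, so the size of that difference includes background and is not exact.

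The arrays of litter 5 stood apart from the rest. They had the lowest median signals of their genotypes, 563 in wildtype (others from 577 to 626) and 549 in KIS-ko (others from 557 to 617). After each array was centred on its median, 9.84% of genes were lowest, and 16.6% highest, in litter 5 in both genotypes, whereas the other litters had from 1.82 to 4.11% lowest and from 1.42 to 3.44% highest. This litter was singled out after its values were seen, so results that rest on it are also given without it.

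All 7 genes had their lowest level in the litter 5 pup, in wildtype and in KIS-ko brains alike, on the arrays as deposited, where 17.2% of all genes did so. The exceptions after centring were Insig1 and Srebf2, whose lowest wildtype brain was then that of litter 6, which left 5 of 7 genes. When the arrays were quantile-normalized again, 6 of 7 were lowest in litter 5 in both genotypes. At the other end, 6 of the 7 genes were highest in litter 1 in both genotypes on the arrays as deposited, against 7.69% of all genes, and Idi1 was the exception. After centring, 3 of the 7 were highest there in both genotypes, against 3.44% of all genes.

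Sqle, which encodes squalene epoxidase, ranged in wildtype brains from 9.84 through a median of 10.51 to 10.61. In KIS-ko brains it ran from 9.86 through 10.46 to 10.82. Both lowest brains were those of litter 5 and lay apart from all others, which began at 10.39 in wildtype and 10.39 in KIS-ko, and the genotypes overlapped over nearly their whole range. After centring, litter 5 was below the mean of the other 5 litters by 0.58 in wildtype and 0.61 in KIS-ko, or 0.669 and 0.657 times their level. Of its 14 probesets, all 14 were lowest in litter 5 in both genotypes.

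Idi1, the isopentenyl diphosphate isomerase, spread from 9.22 through 9.87 to 9.996 in wildtype, and from 8.99 through 9.83 to 10.10 in KIS-ko brains. The other brains of litter 5's genotypes began at 9.75 and 9.72. After centring, the litter 5 pups stood at 0.678 and 0.557 times the mean of their genotype's other litters. The gap was the widest of the 7 genes in KIS-ko, while in wildtype that of Sqle was wider, and all 6 probesets of Idi1 were lowest there in both genotypes.

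Hmgcs1, the cytosolic HMG-CoA synthase, was at 11.40, 11.87 and 12.05 (lowest, median and highest) in wildtype and at 11.39, 11.87 and 12.09 in KIS-ko brains. Litter 5 was again apart from the remaining brains, of which the lowest were at 11.81 and 11.80. All 12 probesets were lowest in litter 5 in both genotypes, and the centred level was 0.746 and 0.731 times that of the other litters.

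Fdft1, squalene synthase, had 10.99, 11.36 and 11.50 in wildtype and 10.90, 11.50 and 11.66 in KIS-ko brains. The litter 5 pups, at 0.803 and 0.686 times the others after centring, were the lowest at 11 of 13 probesets in wildtype and at 11 of 13 in KIS-ko. For Dhcr7, the reductase of 7-dehydrocholesterol, the levels were 9.82, 10.27 and 10.34 in wildtype and 9.71, 10.21 and 10.45 in KIS-ko. Its litter 5 level was 0.796 and 0.728 times that of the other litters, with 9 and 10 of 11 probesets lowest there.

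The members of the control circuit were less far apart. Insig1 lay at 9.88, 10.07 and 10.25 in wildtype and at 9.80, 10.10 and 10.44 in KIS-ko brains, and litter 5 was at 0.924 and 0.818 times the others after centring. Srebf2 had the narrowest range, 10.78, 10.91 and 11.01 in wildtype and 10.76, 10.99 and 11.08 in KIS-ko, and its litter 5 levels of 0.976 and 0.907 times the others were close to the remaining brains. Among probesets, litter 5 was lowest in either genotype at 6 of 10 for Insig1 and at 5 of 12 for Srebf2.

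**Figure D2:**
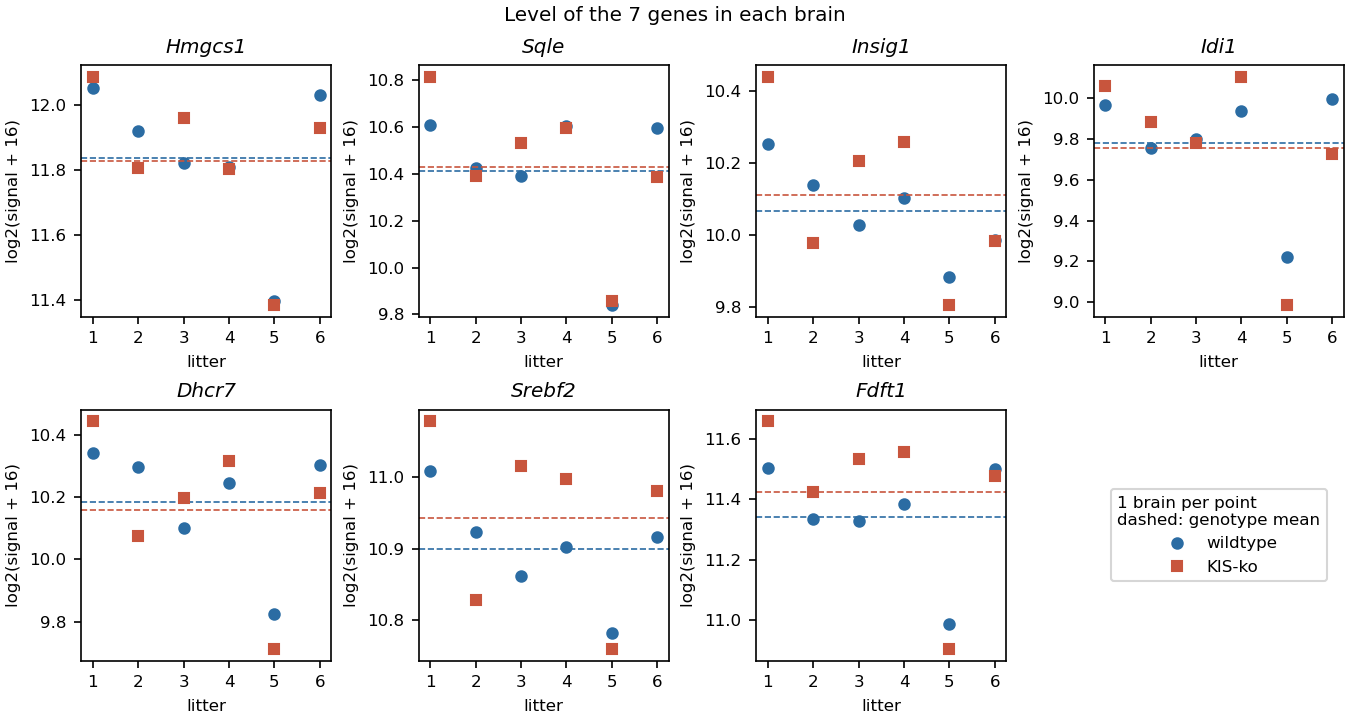
Level of each of the 7 genes, log2(signal + 16) on the y axis, in the wildtype (circles) and KIS-ko (squares) pup of litters 1 to 6, with the genotype means as dashed lines. Each panel has its own y range, and both litter 5 points are the lowest of their genotype in all 7 panels, for example at 9.84 and 9.86 in Sqle and at 10.78 and 10.76 in Srebf2.

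Whether litters differed was also tested for every gene by a moderated F test of the litter term in the same limma fit, chosen after the data were seen. Without adjustment, 6 of the 7 genes had a p under 0.05 (all but Srebf2), where 11.3% of all genes did. The unadjusted limma p was 1.1e-04 for Sqle, 1.4e-04 for Idi1, 2.0e-04 for Hmgcs1, 5.7e-04 for Fdft1, 0.0013 for Dhcr7, 0.010 for Insig1 and 0.12 for Srebf2. After Benjamini-Hochberg adjustment over 17279 genes, limma called 0 genes (0.0%), the 7 genes had adjusted p from 0.119 to 0.60, and 1955 genes had an unadjusted p under 0.05. With dim probesets left out, 5 of the 7 genes (Hmgcs1, Sqle, Idi1, Dhcr7 and Fdft1) passed after adjustment, among 281 of 11425 genes or 2.46%, and with moderation by trend and robust the same 5 passed among 168 of 17279, or 0.972%. Without litter 5, 0 of the 7 genes had an unadjusted p under 0.05, against 3.91% of all genes.

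The difference between genotypes, which the pairs were made to measure, did not pass the test for any of the 7 genes. In KIS-ko relative to wildtype littermates, 4 of them were higher and 3 lower, with a median difference of 0.02 on the log2 scale over the 7 genes and of -0.04 over all genes, of which 30.2% were higher. By limma, 0 of 7 had an unadjusted p under 0.05, where 6.16% of genes did, and the adjusted p ran from 0.685 to 0.945. The genotypes overlapped for all 7 genes (0.208% of genes did not overlap), and 0 of 7 moved the same way in all 6 litters, as 2.52% of genes did.

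On the arrays as deposited, Fdft1 had the largest difference, 0.08 ± 0.05 (SE, 95% confidence interval from -0.03 to 0.20) on the log2 scale, or 1.06 times the wildtype level (from 0.977 to 1.15). It was higher in 4 of 6 litters, by 0.16, 0.09, 0.20 and 0.17 in litters 1 to 4, and was at -0.08 and -0.02 in litters 5 and 6. The exact sign-flip permutation test over the 6 litters, two-sided and with 0.031 as its smallest possible p, gave p = 0.156.

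For Hmgcs1 the knockout level was 0.993 times the wildtype level (from 0.920 to 1.07), with the interval on both sides of no change. Sqle was at 1.01 times (from 0.925 to 1.11), with litters 1 and 6 at 0.21 and -0.21 on the log2 scale. The value of Idi1 was 0.985 times (from 0.886 to 1.09), the widest interval of the 7. Dhcr7 stood at 0.982 times (from 0.899 to 1.07), Insig1 at 1.03 times (from 0.942 to 1.13) and Srebf2 at 1.03 times (from 0.956 to 1.11). Over these 6 genes the sign-flip p, by the same exact permutation test, lay between 0.281 and 0.906. Leaving out litter 5 gave differences from -0.01 for Hmgcs1 to 0.12 ± 0.06 (SE) for Fdft1, with Idi1 at 0.02, and adjusted limma p from 0.724 to 0.970.

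These directions moved with the scaling of the arrays, since the median over all genes was -0.04 on the arrays as deposited and 0.02 after each array was centred on its median. All 7 genes were higher in KIS-ko after centring, where 62.2% of all genes were higher, and when quantile-normalized again, where 51.2% were. With centring, Fdft1 was at 0.14 ± 0.05 and Srebf2 at 0.10 ± 0.04 (SE), and these 2 genes had an unadjusted limma p under 0.05 (0.016 and 0.047), as did 6.35% of genes, but their adjusted p was 0.733. Srebf2 was then higher in 6 of 6 litters, by 0.14, 0.04, 0.18, 0.00089, 0.01 and 0.23, with an exact sign-flip permutation p = 0.031, the smallest this test can give. With centring and without litter 5, Fdft1 was at 0.18 ± 0.07 and Srebf2 at 0.12 ± 0.09 (SD, n = 5), both higher in 5 of 5 litters, with an exact sign-flip permutation p = 0.0625 for either, the smallest that 5 litters can give. The share of all genes that were higher in every litter was not counted after centring.

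The size of the differences also moved with the probesets used. With the median over probesets in place of the mean, Idi1 was at -0.12 ± 0.08 and Dhcr7 at -0.11 ± 0.06, both larger in size than Fdft1 at 0.10 ± 0.06 (SE, limma adjusted p = 0.782 for all of them). With dim probesets left out, Insig1 was at 0.09 ± 0.07 and Fdft1 at 0.07 ± 0.05 (SE, limma adjusted p = 0.748 for both).

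**Figure D3:**
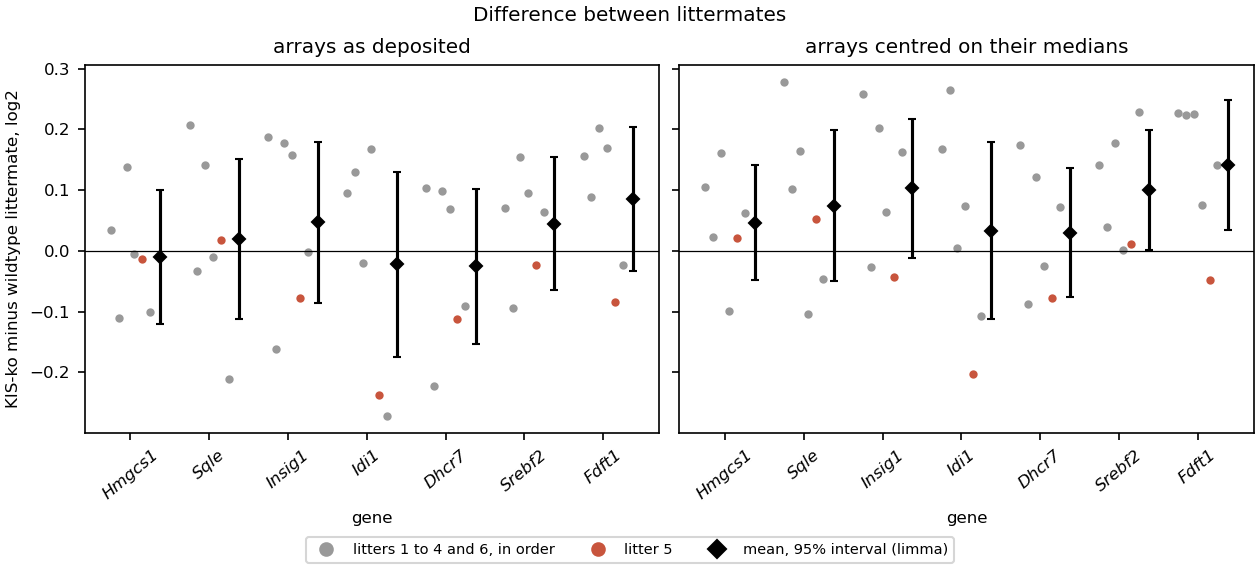
KIS-ko minus wildtype littermate on the log2 scale for each of the 7 genes, 1 point per litter in the order 1 to 6 with litter 5 in red, and the mean with its 95% interval from limma as a diamond. On the arrays as deposited all 7 intervals include 0, and after centring those of Srebf2 (0.00 to 0.20) and Fdft1 (0.03 to 0.25) lie above it.

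The direction differed from litter to litter. In litter 1 all 7 genes were higher in the KIS-ko pup, from 0.03 to 0.21, where 35.3% of all genes were. In litters 5 and 6 only 1 of 7 was higher, against 33.9% and 29.6% of all genes. Litter 2 had 2 of 7 higher (30.9% of all genes), litter 3 had 6 (51.0%) and litter 4 had 5, a share close to the 69.7% of all genes. The mean over the 7 genes was 0.12, -0.06, 0.13, 0.09, -0.08 and -0.09 in litters 1 to 6, that is 0.02 ± 0.10 (SD, n = 6), and the median of all genes in the same litters was -0.05, -0.09, 0.00, 0.07, -0.05 and -0.11. After centring, the mean over the 7 genes was 0.19, 0.08, 0.15, -0.0020, -0.04 and 0.07, so that litters 2 and 6 changed sign upwards and litter 4 downwards.

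The same fit was made for each of 205469 probesets, of which 0.00487% passed after adjustment and 6.63% had an unadjusted p under 0.05. Of the 78 probesets of the 7 genes, 0 passed and 4 had an unadjusted p under 0.05. All 13 probesets of Fdft1 were higher in KIS-ko, from 0.03 to 0.21, against 10 of 12 for Srebf2, 9 of 14 for Sqle, 8 of 10 for Insig1, 5 of 12 for Hmgcs1, 5 of 11 for Dhcr7 and 3 of 6 for Idi1, where 33.8% of all probesets were higher. After centring, with 56.5% of all probesets higher, the counts were 13 for Fdft1, 11 for Srebf2, 11 for Sqle, 9 for Insig1, 10 for Hmgcs1, 7 for Dhcr7 and 4 for Idi1. On the arrays as deposited and without litter 5, they were 12 of 13 for Fdft1, 10 for Srebf2, 8 for Sqle, 8 for Insig1, 4 for Hmgcs1, 4 for Dhcr7 and 4 for Idi1. The share of all probesets that were higher without litter 5 was not counted. Neighbouring probesets of Dhcr7 differed in sign: the one at 151016052 on chromosome 7 was lower by 0.20 ± 0.08 in 6 of 6 litters and the next, at 151022551, was at 0.17 ± 0.06, higher in 6 of 6 litters (SE, limma adjusted p = 0.751 for both). In Insig1 a probeset at 28398178 on chromosome 5 was at 0.19 ± 0.07, higher in 6 of 6 litters, also with a limma adjusted p of 0.751. In Srebf2 the one at 82003196 on chromosome 15 was at 0.07 ± 0.06, higher in 6 of 6 litters (SE, limma adjusted p = 0.811). The share of all probesets that moved one way in 6 of 6 litters was not counted.

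How closely the genes followed each other from brain to brain was measured for the 21 pairs of genes, on centred arrays and after the mean of each genotype was subtracted. Over the 12 brains all 21 correlations were positive, with Pearson's r from 0.505 to 0.949 (median 0.768) and Spearman's rho from 0.224 to 0.909 (median 0.713). With 100000 shuffles within genotype and Benjamini-Hochberg adjustment over the 21 pairs, 18 passed for r and 11 for rho in the permutation test. These p-values take the 12 brains as independent, and littermates are not.

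By r, the tightest pairs lay close together and joined Sqle, Dhcr7, Fdft1 and Idi1. Sqle and Dhcr7 had r = 0.949 and rho = 0.783 (permutation p = 5.6e-04 and 0.0069, adjusted 0.0029 and 0.026), and Sqle and Fdft1 had r = 0.949 and rho = 0.888 (permutation p = 2.3e-04 and 0.0018, adjusted 0.0018 and 0.019). Idi1 and Fdft1 had r = 0.947 and rho = 0.636 (permutation p = 0.0024 and 0.036, adjusted 0.0064 and 0.055), and r was 0.942 for Dhcr7 with Fdft1 and 0.940 for Sqle with Idi1. By rho the tightest pair was Hmgcs1 with Fdft1, which had r = 0.926 and rho = 0.909 (permutation p = 1.6e-04 and 1.5e-04, adjusted 0.0018 and 0.0031). The pairs that did not pass for r were Hmgcs1 with Insig1 (0.606), Insig1 with Idi1 (0.642) and Idi1 with Srebf2 (0.505).

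Much of this rested on litter 5. Without its brains, r over the remaining 10 ran from -0.117 to 0.854 (median 0.615), 19 of 21 pairs were positive, and 0 passed the permutation test after adjustment while 7 had an unadjusted p under 0.05. The highest was Sqle with Fdft1, at r = 0.854 and rho = 0.842 (permutation p = 0.0073 and 0.0077, adjusted 0.128 and 0.0895). Idi1 then had r = -0.12 with Hmgcs1 and -0.08 with Srebf2, while its r with Sqle was 0.702. When the 2 brains farthest from the median of the first gene of a pair were left out, which were those of litter 5 in 16 of 21 pairs, r ran from -0.109 to 0.818 (median 0.536).

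Taking the litter as the unit, the means of the 2 littermates over the 6 litters gave r from 0.620 to 0.985 (median 0.851), a measure added after the data were seen, and 8 of 21 pairs passed the exact permutation test after adjustment for r and 0 for rho. Within litters, the differences between the littermates had r from -0.147 to 0.991 (median 0.558), 19 of 21 were positive, and 0 passed the exact permutation test after adjustment. The highest of these was Insig1 with Dhcr7, at r = 0.991 and rho = 0.943 over 6 litters (exact permutation p = 0.0028 and 0.017, adjusted 0.058 and 0.245). In the 6 wildtype brains alone the median r was 0.899 with 0 pairs passing, and in the 6 KIS-ko brains it was 0.878 with 12 passing, by the same exact test and adjustment.

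**Figure D4:**
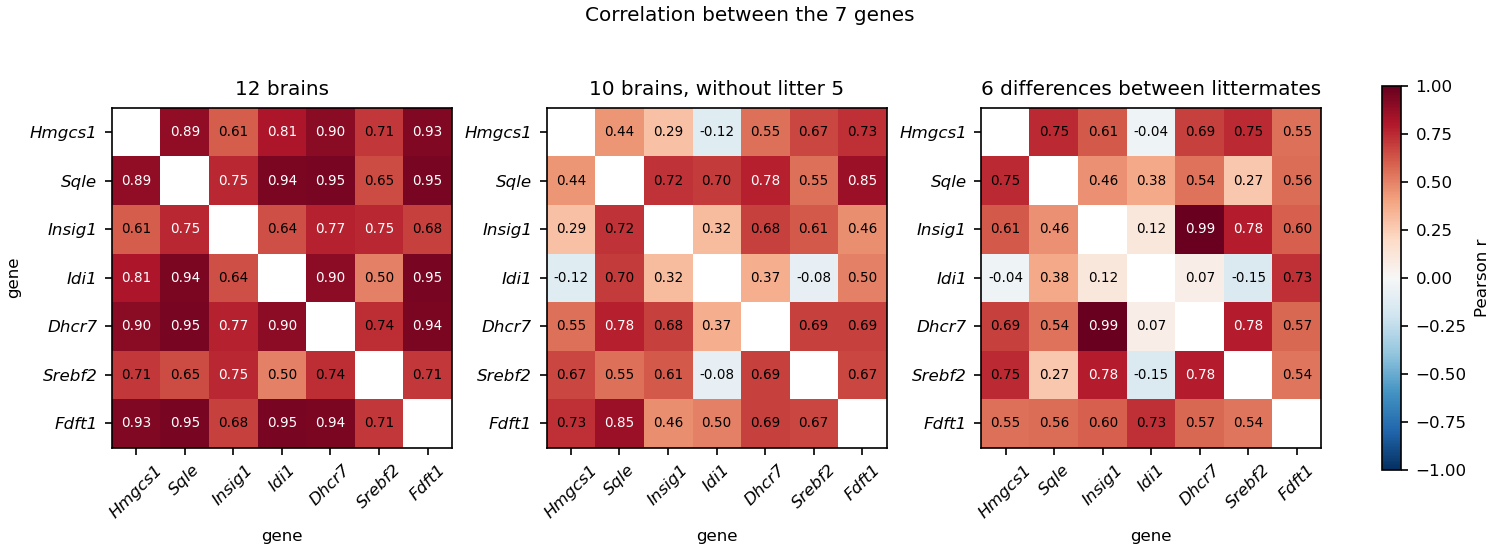
Pearson's r for each pair of the 7 genes over 12 brains, over the 10 brains without litter 5, and over the 6 differences between littermates, from -1 in blue to 1 in red. All 21 values are positive over 12 brains, and 19 of 21 are in each of the others, where the values below 0 belong to Idi1.

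The likeness of every other gene to the 7 was given by r with their mean profile over the 12 brains, as a description. Lss, lanosterol synthase, was at rank 2 in this order (r = 0.969). Rnaseh2a, a subunit of ribonuclease H2, had 0.963, and Klraq1 and Taco1 each had 0.961. Cyp51, the lanosterol demethylase, came at rank 9 (0.944). Leaving out litter 5 put Lss at rank 31 (0.893), Klraq1 at 24, Rnaseh2a at 83, Taco1 at 85 and Cyp51 at 260. All of these shared the same arrays, and the median r over all genes was -0.20 with litter 5 and 0.01 without it.

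Each of the 7 genes was also set against the profile of the other 6. Dhcr7 had r = 0.966 (rank 3 of 17273), Fdft1 0.957 (rank 6), Sqle 0.952 (rank 7), Hmgcs1 0.888 (rank 87) and Idi1 0.867 (rank 200). Insig1 had 0.755 and Srebf2 0.728, at ranks 936 and 1045. Without litter 5, Sqle, Fdft1 and Dhcr7 were at ranks 29, 55 and 103, and Hmgcs1 and Idi1 had r = 0.535 and 0.339, at ranks 1546 and 3953. Insig1 and Srebf2 then had 0.660 and 0.661 and stood nearer the top, at ranks 786 and 640.

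The remaining genes of cholesterol synthesis were 17, from acetyl-CoA to the last sterol steps, and all were measured. In KIS-ko brains 7 of them were higher and 10 lower, 0 passed the limma test after adjustment and 1 had an unadjusted p under 0.05, as did 6.16% of all genes, with a median of -0.01 on the log2 scale. As deposited, 30.2% of all genes were higher, and the directions turned with the scaling: after centring 13 of the 17 were higher and 3 had an unadjusted limma p under 0.05, against 62.2% and 6.35% of all genes. That 1 was Hsd17b7, a 3-ketosteroid reductase of the sterol steps, at 0.23 ± 0.06 (SE), higher in 5 of 6 litters (limma adjusted p = 0.685), and at 0.22 ± 0.07 without litter 5 (limma adjusted p = 0.724). The table places its probesets on chromosome 1 (171880046 to 171899256), 230758 bases from those of the targeted Uhmk1 (172130014 to 172145483), and whether its place near the deletion has a part in the difference was not tested. The lowest was Ggps1, which makes geranylgeranyl diphosphate for protein prenylation and is a side branch, at -0.10 ± 0.06 (limma adjusted p = 0.686). Without litter 5, 8 of the 17 were higher and 9 lower, and 1 had an unadjusted p under 0.05, but the shares over all genes were not counted there.

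In litter 5 these 17 genes followed the 7. After centring, 16 of 17 were below the mean of the other litters in both genotypes, against 23.2% of all genes, and 12 were the lowest in both, against the 9.84% given above. Sc4mol, the sterol C4 methyl oxidase, was at 9.30 in the wildtype pup (others from 9.62 to 9.91) and at 9.19 in the KIS-ko pup (others from 9.70 to 9.88). Both litter 5 levels were below the dim level of 9.51, so the size of that gap includes background. Over all brains, 4 of the 17 genes were at or below it. Lss was at 10.21 (others from 10.41 to 10.64) and 10.18 (others from 10.55 to 10.84). Ggps1 alone was above the other litters in both genotypes, by 0.16 and 0.01. The r with the profile of the 7 had a median of 0.845 over the 17 genes, and 0.675 without litter 5, with 16 of 17 positive either way.

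The proteins that control SREBP were measured by 8 genes. Among them are Scap, the escort, Mbtps1 and Mbtps2, the proteases of the Golgi, and Rnf139, a ubiquitin ligase of the endoplasmic reticulum. In KIS-ko brains 1 was higher and 7 were lower, 0 passed the limma test after adjustment and 0 had an unadjusted p under 0.05, with Insig2 lowest at -0.15 and Rnf139 highest at 0.01. Insig2, at 9.46 in wildtype and 9.31 in KIS-ko, was the 1 gene of the 8 at or below the dim level of 9.51. In litter 5, 0 of 8 were below the others in both genotypes, against 23.2% of all genes. In turn 5 of 8 were above them in both, Scap by 0.11 and 0.10, a share near the 48.4% of all genes, and 4 of 8 were the highest in both, against 16.6%. The sum of log2 levels over the list was highest in litter 5, at 81.77 in wildtype (others from 81.33 to 81.61) and 81.95 in KIS-ko (others from 81.17 to 81.76). After centring, the median of all genes was itself above the other litters in litter 5, by 0.08 in wildtype and 0.03 in KIS-ko. Such a shift adds up over a list, and the sum was not corrected for it. The median r with the profile was -0.43, and 0.03 without litter 5.

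Uptake and transport were represented by 10 genes, of which 4 were higher and 6 lower in KIS-ko brains, 0 with an unadjusted limma p under 0.05. Mylip, a ubiquitin ligase that marks lipoprotein receptors for degradation, was the lowest at -0.15. It was dim, at 9.45 in wildtype and 9.30 in KIS-ko, and 4 of the 10 genes were at or below 9.51. In litter 5, 5 of the 10 were below the mean of the other litters in both genotypes, against 23.2% of all genes, and 5 were above it in both, against 48.4%. Npc1, which exports cholesterol from lysosomes, was above the others there by 0.13 and 0.11, and had r = -0.79 with the profile and -0.52 without litter 5.

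Among 9 measured genes of efflux, storage and turnover, 2 were higher and 7 lower in KIS-ko brains, from -0.12 (Apoe) to 0.09 (Ch25h), and 0 had an unadjusted limma p under 0.05. Ch25h was far below the dim level of 9.51, at 6.11 in wildtype and 6.20 in KIS-ko, and 4 of the 9 genes were at or below it. In litter 5, 5 of 9 were above the other litters in both genotypes, a share near the 48.4% of all genes, and 3 were the highest in both, against 16.6%. The cholesterol exporter Abca1 was at 10.56 in the wildtype pup (others from 10.26 to 10.39) and 10.50 in the KIS-ko pup (others from 10.18 to 10.41). Abcg1, another exporter, was above the others by 0.23 and 0.21, and Apoe, the main lipid carrier made in brain, by 0.17 and 0.21. Soat1, which esterifies cholesterol for storage, was lowest there, at -0.21 and -0.30. Without litter 5 the r of Abca1 with the profile went from -0.83 to -0.70, and that of Abcg1 from -0.68 to -0.19.

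Fatty acid synthesis, which SREBP1 is known for, was represented by 11 genes. In KIS-ko brains 2 were higher and 9 lower, from -0.12 (Acss2) to 0.01 (Fasn), with 0 under an unadjusted limma p of 0.05. Acly, Acaca, Acss2 and Me1, which make and carboxylate acetyl-CoA or supply NADPH, were lowest in litter 5 in both genotypes, 4 of 11 genes against 9.84% of all, and 6 of 11 were below the other litters in both, against 23.2%. Added over the 11 genes, the log2 levels on centred arrays were lowest in litter 5, at 123.19 in wildtype (others from 123.75 to 124.21) and 123.05 in KIS-ko (others from 123.63 to 124.70). By contrast Fasn, the synthase, was above the other litters by 0.04 and 0.03. The median r with the profile was 0.50, and 0.26 without litter 5. The directions of the last 4 lists have to be set against the 30.2% of all genes that were higher as deposited and the 62.2% after centring, where 4 of 8 SREBP control genes, 7 of 10 of uptake and transport, 4 of 9 of efflux, storage and turnover and 9 of 11 of fatty acid synthesis were higher, 0 of them with an unadjusted limma p under 0.05. With litter 5 left out, these lists had the same counts of genes higher and lower in KIS-ko brains, and 0 genes with an unadjusted limma p under 0.05. The shares over all genes were not counted in that setting.

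**Figure D5:**
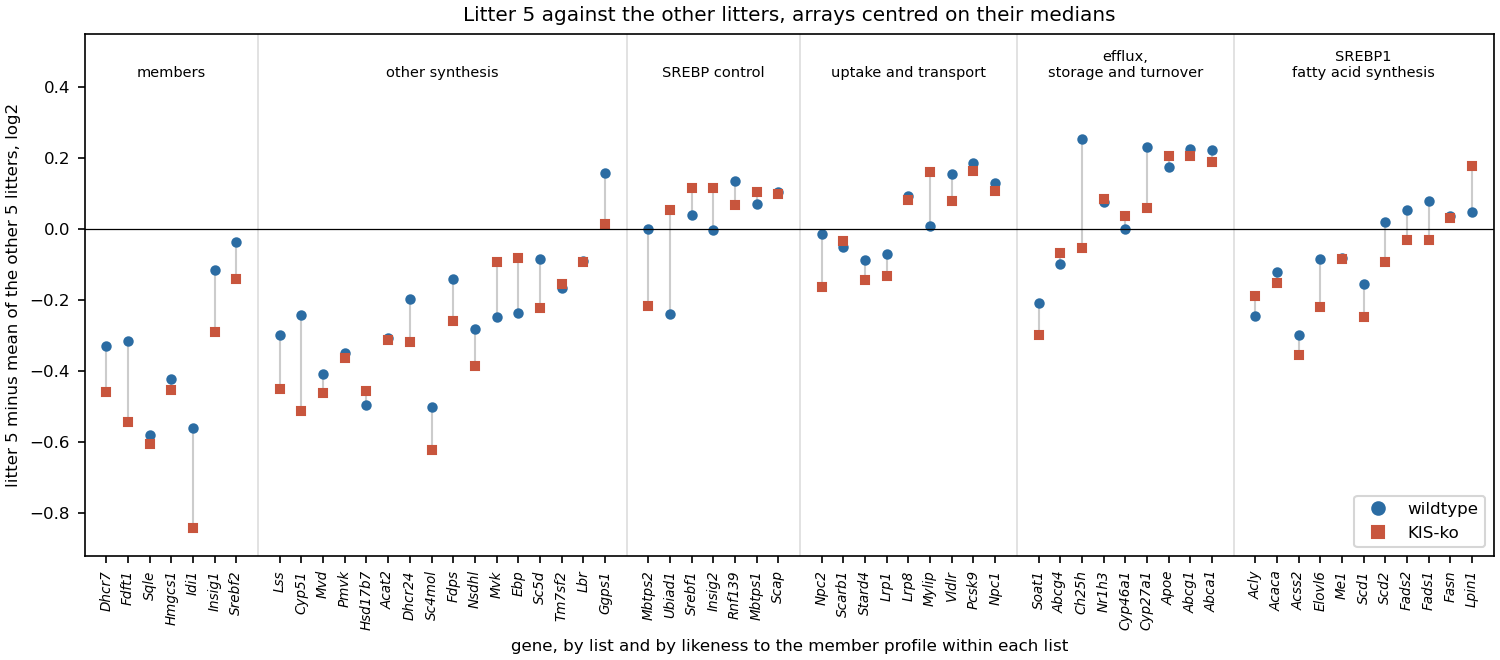
Level in the litter 5 pup minus the mean of the other 5 litters of its genotype, in log2 on centred arrays, for the wildtype (circles) and KIS-ko (squares) pups and the genes of 6 lists that are reported singly, ordered within a list by likeness to the profile of the 7 genes. All 7 genes lie below 0 in both genotypes, Ggps1 is the only other synthesis gene drawn above it, and Abca1 lies about 0.2 above it.

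Markers of other cell types were read in litter 5 as well. Log2 levels added over a list, on centred arrays, were highest in litter 5 in both genotypes for the oligodendrocyte lineage, microglia, erythroid cells and liver. These sums were not corrected for the median of all genes, which was above the other litters there by 0.08 in wildtype and 0.03 in KIS-ko for each gene. Many genes of these lists were also dim. At or below a level of 9.51, that of a signal of 713, were 5 of 6 microglial, 4 of 6 erythroid, 3 of 4 liver and 1 of 5 oligodendrocyte lineage genes, a range that 95% of the intron control probesets share.

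For the 5 genes of the oligodendrocyte lineage the sum was 48.59 in the wildtype pup (others from 47.90 to 48.52) and 49.17 in the KIS-ko pup (others from 47.89 to 48.38). Its genes did not move one way: Olig2, a transcription factor of the lineage, was above the other litters by 0.26 and 0.51 and Sox10, another, by 0.31 and 0.48, while Pdgfra, a receptor of the precursors, was at -0.14 and -0.10 and lowest there in both genotypes, and Cspg4 was at -0.01 and -0.07. The 6 erythroid genes gave 55.08 (others from 53.42 to 54.45) and 55.12 (others from 54.15 to 54.93), with 5 of 6 above the others in both genotypes against 48.4% of all genes, and 1 of 6 the highest in both against 16.6%. Of these, Hbb-b1, a globin chain and not dim, was above the others by 0.20 and 0.03. With litter 5 left out, the r with the profile went from 0.04 to 0.883 for Hbb-b1 and from -0.12 to 0.763 for Hba-a1. For Olig1, of the oligodendrocyte lineage, it went from 0.23 to 0.841. The lists were mixed: r was then positive for 3 of 6 erythroid genes (median 0.338) and 4 of 5 of the lineage (median 0.166). Over all genes its median was 0.01. Whether these cells have a part in the profile was not tested.

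Sums for the 6 microglial genes were 50.69 (others from 49.43 to 50.44) and 50.75 (others from 50.18 to 50.64), with 2 of 6 above the others in both genotypes and 1 of 6 the highest in both, against the same 48.4% and 16.6% of all genes. Those for the 4 liver genes were 35.77 (others from 34.85 to 35.30) and 35.83 (others from 34.94 to 35.77). All 4 were above the others in both genotypes and 2 were the highest in both, against 48.4% and 16.6% of all genes, and the only one of them that was not dim, Ttr, is also on the choroid plexus list. Neurons, with 5 genes, were at 64.73 and 64.54, where the others ran from 64.25 to 64.59 and from 64.25 to 64.81. The part of these cell types, of the lower array medians and of the litter itself in the low levels of the 7 genes was not tested.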

How the data were processed

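Total RNA of 12 newborn brains was measured on Affymetrix Mouse Exon arrays. The authors processed the arrays with the Affymetrix Expression Console, which normalized exon values by quantiles and summarized them with PLIER, and deposited 1 linear intensity (PLIER signal) per probeset and array. Arrays give no read depth, so their number and the signal over background limit the precision.

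The table's 221417 main probesets with a symbol were used. Those whose SD exceeded 0.4 times the mean in wildtype or in KIS-ko brains were left out, following the methods (15948), which left 17279 genes. Levels are means of log2(intensity + 16). Genes and probesets were fitted by limma (3.58.1, under R 4.3.3) on genotype with the litter as a block, with Benjamini-Hochberg adjustment and a threshold of 0.05, and the code was tested on simulated data. The labels give each pair of littermates 1 litter, and deviations of littermates from their genotype means correlated at 0.272, -0.0592, 0.136, -0.105, 0.473 and -0.114 in litters 1 to 6. Correlations with their permutation tests and likeness were computed in Python 3.11.15 with scipy 1.17.1 on arrays centred on their medians, sign-flip tests on the arrays as deposited unless stated, and plots with matplotlib 3.10.9.

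The 7 genes and the lists were chosen with earlier results of these data known. Named are all 7 genes, Uhmk1, the lowest and highest gene of each pathway list, list genes among the first 20 by likeness and the 5 other genes most like the 7, except 3 list genes that are not reported here singly. Hsd17b7, Sc4mol, Npc1, Scap, Abca1, Abcg1, Soat1, other single genes of the lists and single probesets were named after their values were seen. Alternatives were no litter block, pseudocounts of 1 and 64, other filters, dim probesets left out, probesets matching 1 place, 2 other scalings, the median over probesets, trend and robust moderation, the methods' fold change and each litter left out. The litter test, the litter means and the litter 5 values were added after the data were seen.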

Additional observations from a re-analysis of the deposited data

Results flagged for a closer look

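In each genotype the highest and lowest of the 6 brains were examined for each of the 7 genes, by the gap to the nearest other brain as a share of the whole range, against Dixon's 95% critical value for 6 samples. Of 14 groups, 6 were past it, and all 6 were a litter 5 brain that lay lowest. In wildtype these were Sqle (0.715), Idi1 (0.686), Fdft1 (0.664) and Hmgcs1 (0.628). In KIS-ko they were Fdft1 (0.688) and Idi1 (0.66). Chance gives about 1 such group in 20, and the 14 groups share the same 12 arrays.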

How the results depend on the processing

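No setting made any of the 7 genes pass for genotype: adjusted limma p ran from 0.442 to 1.00 over the alternatives. Insig1, Srebf2 and Fdft1 were higher in KIS-ko under all of them. Without the replicate block (genotype alone, so that the pairing was not used) the log2 differences of the 7 genes were the same, and 1 gene was called. Centring turned the differences of Hmgcs1, Idi1 and Dhcr7 to 0.0459, 0.0332 and 0.0299, and renewed quantile normalization to 0.0144, 0.0206 and 0.0143. The methods' fold change turned Dhcr7 to 0.0238. Leaving out each litter in turn gave -0.0394 to 0.0106 for Hmgcs1, -0.019 to 0.0645 for Sqle, -0.0606 to 0.0274 for Idi1, -0.0516 to 0.0134 for Dhcr7, and -0.0021 to 0.0416 for the mean of the 7 genes. Idi1 had no value with probesets matching 1 place or with the filter at 0.2.

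All genes called for genotype numbered 1, against 2 with trend and robust moderation, pseudocount 64 or no relative SD filter, 5 with the filter at 0.2 or without dim probesets, and 1 to 2 with a litter left out. Genes called for the litter term numbered 0, against 168 with trend and robust moderation, 29 with pseudocount 64 (with Hmgcs1, Sqle and Idi1 among them) and 281 without dim probesets.

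The median correlation of the 21 pairs was 0.768, against 0.558 for differences within litters and 0.615 to 0.901 with a litter left out. Pairs that passed numbered 18, against 0 in wildtype brains only, 0 for differences within litters, 8 for litter means and 0 to 20 with a litter left out, the 0 without litter 5 and 9 without litter 1. The causes were not tested.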
